A study of Homo sapiens with 3 samples.

Results

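The metallothionein genes MT1E, MT1F, MT1G, MT1M, MT1X and MT2A, the metal-sensing transcription factor gene MTF1 and the zinc exporter gene SLC30A1 were followed in RNA sequencing counts from Caco-2 cells. These 8 genes were taken by symbol from the 60664 Ensembl gene identifiers of the deposited table, and all 8 were found. Caco-2 is an established human colon carcinoma line that serves as a model of the intestinal epithelium. The DSS with polydatin group received 30 µM polydatin, a glucoside of resveratrol, for 2 h and then polydatin together with 3% dextran sulfate sodium (DSS) for 8 h. The DSS group received 3% DSS for 8 h, and the control group stayed untreated. All 3 groups are wild type by their labels, come from 1 cell line and hold 1 library each. Judging by its title, the study asked whether polydatin counters DSS injury through the NRF2, SLC7A11 and GPX4 pathway that restrains ferroptosis, an iron-dependent cell death. Cells given erastin or a ferroptosis inhibitor belong to the wider study and were not analysed here.

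Metallothioneins are small cysteine-rich proteins that bind zinc, copper and cadmium through their thiol groups and also react with oxidants. MTF1 senses free zinc through its zinc fingers, moves to the nucleus and binds metal response elements in front of the metallothionein genes and of SLC30A1. SLC30A1 (also called ZnT1) carries zinc out of the cell at the plasma membrane, so metallothioneins and SLC30A1 are textbook targets of the same factor. In the intestine, metallothioneins buffer zinc inside absorptive cells.

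Library totals ran between 16667622 and 18825914 counts. CPM below stands for reads of a gene per 1e6 reads of its library, after TMM scaling of the totals. A gene was called measured when it reached 1 CPM in at least 1 library, about 17.4 to 18.5 counts, which held for 14792 genes. With 1 library per group there is no replicate check and no test of the conditions. Each ratio compares libraries, and each interval in parentheses is a 95% interval that covers counting error only. Of 9 epithelial markers 7 were measured, with a summed level of 6708 CPM in DSS with polydatin, 8438 CPM in DSS and 7045 CPM in control. Among these, CDX1 was at 0 counts in all 3 libraries and KRT20 stayed below 1 CPM. KRT8 held the largest part of the sum, at 2815, 3600 and 2970 CPM in the same order. CDX2 and CDH1 ran in opposite directions, CDX2 at 78.3, 118 and 147 CPM and CDH1 at 738, 698 and 586 CPM. Of 5 leukocyte markers, PTPRC was at 0 throughout and 1, LYZ, was measured, with summed levels of 2.58, 4.53 and 0.771 CPM in the same order. Of 4 fibroblast markers 3 were measured, summing to 54.4, 49.8 and 60.4 CPM. Within this sum COL1A1 had 755, 701 and 720 counts, COL3A1 27, 35 and 35 and PDGFRA 164, 186 and 342. Of 3 endothelial markers 2 were measured, summing to 13.5, 17.4 and 24.9 CPM. These 2 ran in opposite directions, PECAM1 with 166, 297 and 443 counts and VWF with 68, 22 and 9. The part of the cell type markers in the results was not tested. In bulk RNA fewer cells of a type and less RNA per cell cannot be told apart.

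The metallothionein genes are near-copies of each other, which bears on how their reads are counted. Their coding sequences, from GENCODE 29 transcripts on GRCh38, are all 186 bases long and hold 61 codons, 20 of them for cysteine, in each of the 6 members. Pairwise identity between the 6 ran between 88.7% for MT1F and MT1X and 95.2% for MT1G and MT2A. The 3 with the most counts are shown 5′ to 3′, spliced, with the metal-binding cysteine codons in capitals. MT2A is read from chromosome 16, 56608656 to 56609354, MT1F from 56658059 to 56659164 and MT1E from 56625852 to 56626971, all on the plus strand and in 3 exons.
MT2A: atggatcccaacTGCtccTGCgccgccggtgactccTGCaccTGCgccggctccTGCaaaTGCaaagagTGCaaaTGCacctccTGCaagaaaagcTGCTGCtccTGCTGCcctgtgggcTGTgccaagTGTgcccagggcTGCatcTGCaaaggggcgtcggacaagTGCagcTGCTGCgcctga
MT1F: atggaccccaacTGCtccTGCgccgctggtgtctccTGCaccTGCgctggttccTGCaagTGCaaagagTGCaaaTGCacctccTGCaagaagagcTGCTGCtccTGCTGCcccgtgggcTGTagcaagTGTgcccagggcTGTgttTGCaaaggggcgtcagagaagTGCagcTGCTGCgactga
MT1E: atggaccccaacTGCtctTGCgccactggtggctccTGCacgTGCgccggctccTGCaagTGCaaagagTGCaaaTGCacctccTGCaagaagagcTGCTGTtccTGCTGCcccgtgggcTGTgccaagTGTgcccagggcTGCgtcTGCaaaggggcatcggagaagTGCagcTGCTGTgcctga
The positions of the cysteine codons repeat between the 3, and most differences lie in the last base of a codon. Of all 50-base windows of the representative transcript, 4.88% of those of MT2A, 3.59% of MT1F, 5.34% of MT1E, 7.05% of MT1M, 20.2% of MT1G and 45.1% of MT1X stood letter for letter in a transcript of another gene. At 100 bases the share was 0% for every member except MT1X, at 19.1%, all of it in the overlapping transcript AC026461.1. Neither the read length nor the treatment of reads with several matches is given in the sources used here, and by this measure the counts of MT1X and MT1G are the least certain of the 6.

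Metallothionein transcripts were scarce in all 3 libraries. The 6 genes together had 50 counts in DSS with polydatin, 80 in DSS and 122 in control, or 2.87, 4.32 and 6.72 CPM. The DSS library was at 0.643 times control (0.479 to 0.859), the DSS with polydatin library at 0.664 times DSS (0.457 to 0.957) and at 0.427 times control (0.301 to 0.598). The control library was therefore the highest and the library with polydatin the lowest, with each interval short of 1. These comparisons share libraries and are not independent of each other. Without MT2A the sum was at 0.713 times control in DSS (0.481 to 1.05), at 0.775 times DSS with polydatin (0.486 to 1.22) and at 0.552 times control with polydatin (0.356 to 0.844), so 2 of the 3 intervals then reached 1. With all 21 metallothionein genes and pseudogenes of the table summed, the counts were 55, 92 and 135 and the ratios 0.668 (0.507 to 0.877), 0.635 (0.446 to 0.897) and 0.424 (0.304 to 0.585) for the same comparisons.

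**Figure D1:**
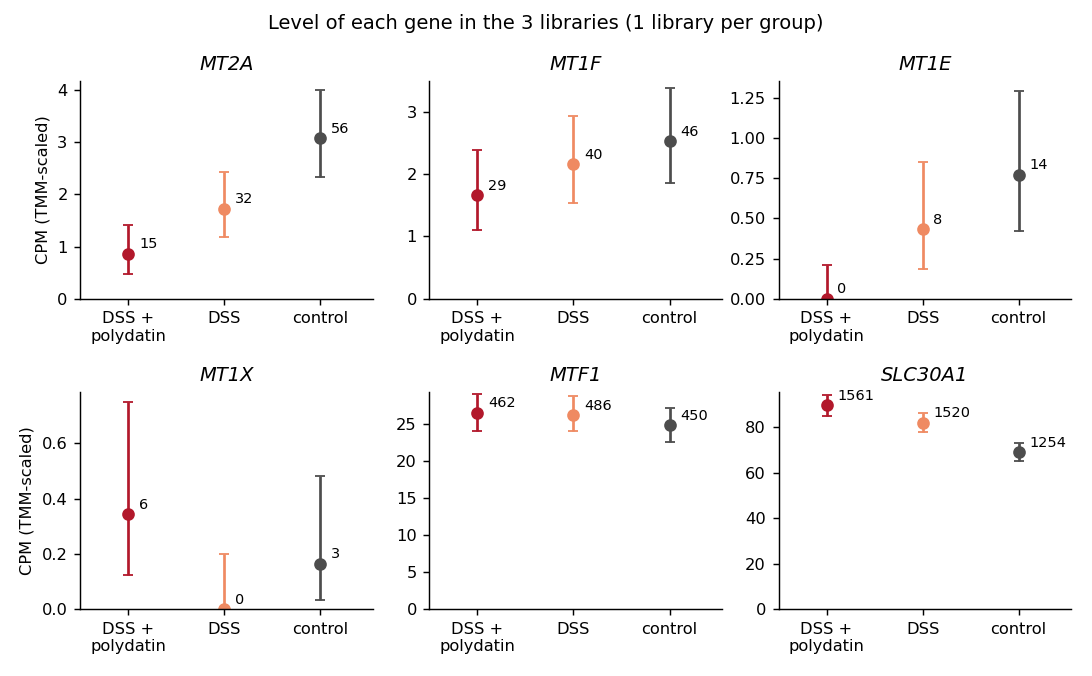
Level of 6 genes in CPM (vertical axes, each starting at 0) in the DSS with polydatin, DSS and control libraries, with exact 95% Poisson intervals and the raw count beside each point. MT2A, MT1F and MT1E are lowest with polydatin and highest in control, MT1X has 6 counts at most, MTF1 is level and SLC30A1 runs the other way.

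MT2A, the main constitutive metallothionein of most human tissues (chromosome 16, 56608199 to 56609497, GRCh38), had 15 counts in DSS with polydatin, 32 in DSS and 56 in control. The levels were 0.860, 1.73 and 3.08 CPM. Each library was below the next, and MT2A stood at percentile 2.14, 12.5 and 20.6 of the measured genes. MT2A was at 0.560 times control in DSS (0.351 to 0.880), at 0.498 times DSS with polydatin (0.251 to 0.947) and at 0.279 times control with polydatin (0.147 to 0.50). With polydatin it lay below 1 CPM, and it counts as measured through the other libraries.

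MT1F (chromosome 16, 56657694 to 56660698) had 29 counts in DSS with polydatin, 40 in DSS and 46 in control, or 1.66, 2.16 and 2.53 CPM. The order was that of MT2A with smaller steps. All 3 intervals reached 1, at 0.852 times control in DSS (0.544 to 1.33), 0.770 times DSS with polydatin (0.461 to 1.27) and 0.657 times control with polydatin (0.398 to 1.07). As a share of the reads of the 6 genes, MT1F held 58.0% with polydatin (exact binomial interval 43.2 to 71.8), 40 of the 80 reads in DSS (38.6% to 61.4%) and 37.7% in control (29.1 to 46.9), and MT2A held 30.0% (17.9 to 44.6), 40.0% (29.2 to 51.6) and 45.9% (36.8 to 55.2). MT1F was thus the most counted metallothionein in both treated libraries and MT2A in control. For each gene the intervals overlapped between all 3 libraries. Those of MT1F and MT2A also overlapped within each library, so the change of order is not settled.

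MT1E (chromosome 16, 56625475 to 56627112) had 0 counts in DSS with polydatin, 8 in DSS and 14 in control. A count of 0 allows a level of up to 0.172 CPM in that library, taking 3 counts as the floor. Against this floor MT1E was at least 2.51-fold lower with polydatin than in DSS and at least 4.48-fold lower than in control, with the counts of DSS and control taken as exact. With counting error in both libraries, the exact upper bound of the ratio was 0.622 against DSS and 0.314 against control. DSS was at 0.560 times control (0.204 to 1.43). MT1X (56682424 to 56684196) did not share the order. It had 6 counts in DSS with polydatin, 0 in DSS and 3 in control, which puts the library with polydatin at least 2.12-fold above DSS at the floor, with an exact lower bound of 1.25, and at 2.08 times control (0.445 to 12.9). The transcript AC026461.1, which overlaps MT1X on the same strand, had 0 counts in all 3 libraries. The counting program is not given, so reads in the overlap may have been left out of both counts, which was not tested. MT1G (56666731 to 56668065, minus strand) had 0, 0 and 3 counts, at or under the floor everywhere, so no fold is given. MT1M (56632233 to 56633986) had 0 counts in each library. The floor stands at 0.172 CPM with polydatin, 0.162 CPM in DSS and 0.165 CPM in control. The exact Poisson intervals of MT1M reach 0.212, 0.199 and 0.203 CPM in the same order.

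Of the other members of the family, MT1A alone had more than 1 count in any library. MT1A, outside the 8 genes, had 4 counts in DSS with polydatin, 10 in DSS and 13 in control. This is the same order as MT2A, MT1F and MT1E, with intervals that reached 1 in all 3 comparisons. Per kilobase of transcript MT1A stood at 0.579, 1.36 and 1.81 CPM, above MT1E at 0, 0.613 and 1.10 CPM. MT4, a form known from stratified epithelium, had 1 count in DSS and 0 in the other libraries. Among pseudogenes MT1XP1 had 1 count in DSS and MT1P1 1 count with polydatin, where it lies within FANCC on the same strand. The other 12 of the 21, MT1M among them, had 0 counts in every library. On chromosome 16 the 16 annotated metallothionein genes and pseudogenes span 119.1 kb, and reads concentrated on MT2A, MT1E, MT1A and MT1F. The other annotated protein-coding genes within 100 kb of the cluster were OGFOD1, BBS2 and NUP93. Ratios of DSS with polydatin to control were 0.672 (0.621 to 0.728) for OGFOD1, 0.960 (0.843 to 1.09) for BBS2 and 0.680 (0.628 to 0.735) for NUP93. Of DSS to control they were 0.824 (0.766 to 0.887), 0.872 (0.765 to 0.993) and 0.890 (0.828 to 0.956).

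**Figure D2:**
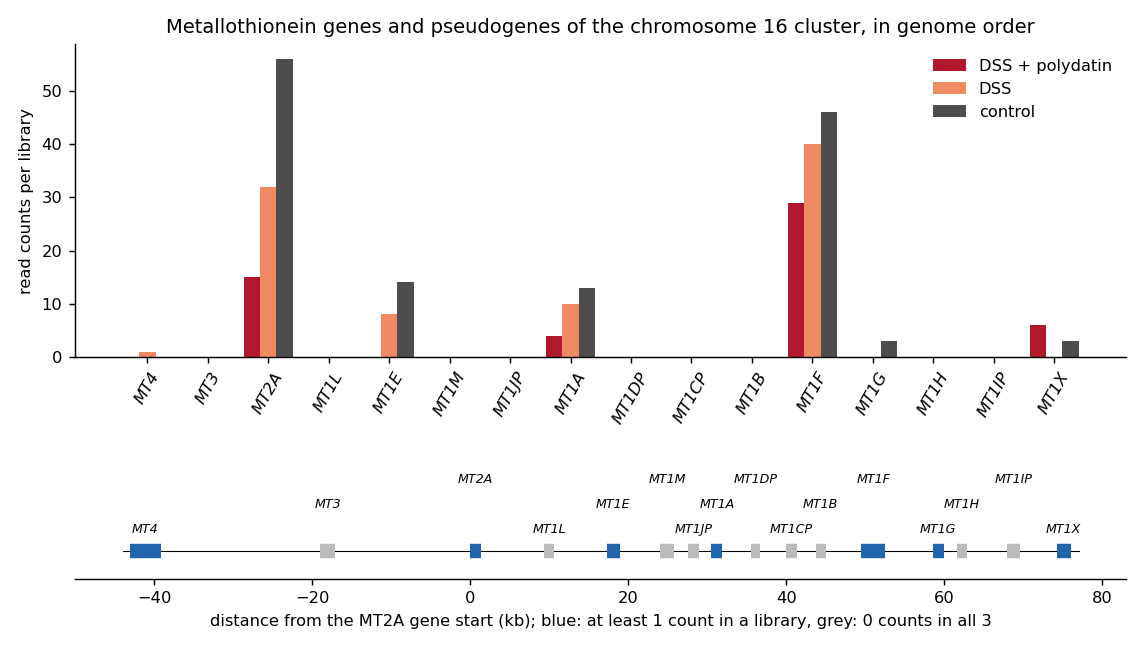
Raw read counts (upper panel, vertical axis from 0) of the 16 metallothionein genes and pseudogenes of the chromosome 16 cluster in each library, and their places as distance in kb from the start of MT2A (lower panel). MT2A and MT1F carry most counts, with MT2A at 15, 32 and 56 and MT1F at 29, 40 and 46 for DSS with polydatin, DSS and control.

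MTF1, the zinc sensor (chromosome 1, 37809567 to 37859620, minus strand), had 462 counts in DSS with polydatin, 486 in DSS and 450 in control, or 26.5, 26.2 and 24.8 CPM. The 3 libraries lay close together. MTF1 was at 1.06 times control in DSS (0.929 to 1.21), at 1.01 times DSS with polydatin (0.887 to 1.15) and at 1.07 times control with polydatin (0.937 to 1.22). A processed pseudogene, AL929472.4, lies within MTF1 on the opposite strand, and without a known strand setting its reads cannot be told apart from those of MTF1.

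SLC30A1, the plasma membrane zinc exporter gene (chromosome 1, 211571568 to 211578742, minus strand), had 1561 counts in DSS with polydatin, 1520 in DSS and 1254 in control, or 89.5, 82.0 and 69.1 CPM. Here the library with polydatin was highest and control lowest, the reverse of MT2A. SLC30A1 was at 1.19 times control in DSS (1.10 to 1.28), at 1.09 times DSS with polydatin (1.02 to 1.17) and at 1.30 times control with polydatin (1.20 to 1.40). Each interval excluded 1 and each ratio fell short of 1.5-fold. A share that needs no scaling shows both targets together. Metallothionein reads made up 3.10% of the reads of the 6 metallothioneins plus SLC30A1 in DSS with polydatin (exact interval 2.31 to 4.07), 5.00% in DSS (3.98 to 6.18) and 8.87% in control (7.42 to 10.5). Against MTF1 the same share was 9.77% (7.34 to 12.7), 14.1% (11.4 to 17.3) and 21.3% (18.0 to 24.9).

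**Figure D3:**
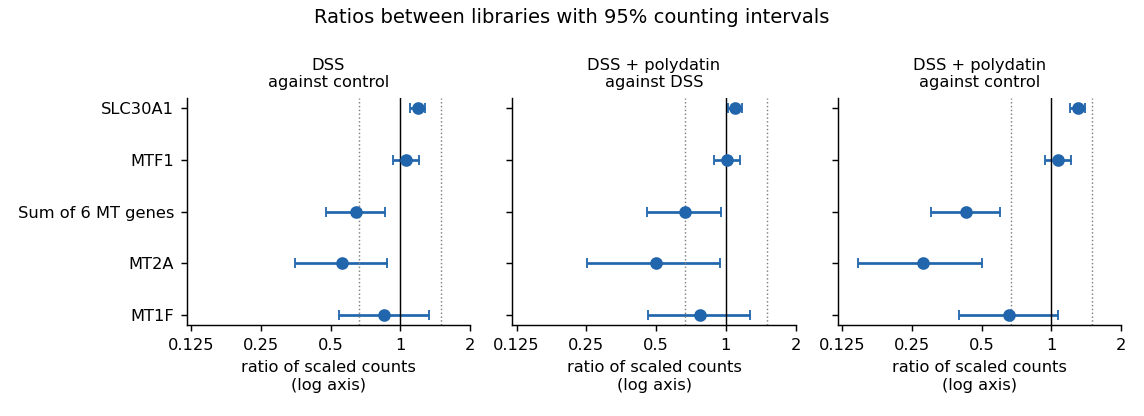
Ratio of scaled counts (horizontal log axis) with 95% counting intervals for SLC30A1, MTF1, the sum of the 6 metallothionein genes, MT2A and MT1F in the 3 comparisons; the solid line marks 1 and dotted lines 1.5-fold. SLC30A1 lies above 1 throughout (1.19, 1.09 and 1.30), MTF1 covers 1, and MT2A lies below 1 (0.560, 0.498 and 0.279).

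Of the 8 genes, 4 were measured, MT2A, MT1F, MTF1 and SLC30A1. In DSS against control 1 of the 4, MT2A, was at least 1.5-fold lower with an interval excluding 1, beside 5.81% of all measured genes, and 0 were higher by as much, beside 9.45%. In DSS with polydatin against DSS the counts were again 1 lower (MT2A) and 0 higher, beside 2.60% and 5.39% of all measured genes. In DSS with polydatin against control they were 1 lower (MT2A) and 0 higher, beside 12.4% and 16.0%. At 2-fold the count lower was 0 in DSS against control, beside 1.76% of all measured genes, 1 in DSS with polydatin against DSS, beside 0.460%, and 1 against control, beside 3.27%. The count higher at 2-fold was 0 in each, beside 4.24%, 1.94% and 8.53%. With so few measured genes these counts say little about the group. Under total-count scaling or with libraries thinned to the same total, MT2A no longer met the rule in DSS with polydatin against DSS (0 lower).

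Levels of different genes were compared per kilobase of the representative GENCODE transcript. In control SLC30A1 led at 12.6 CPM per kb, 3.22 times MT2A (2.46 to 4.28). MT2A at 3.92, MT1F at 3.67 and MTF1 at 3.11 CPM per kb followed, and neighbours among them did not differ beyond counting error. MT1E came next among the 8 genes at 1.10 CPM per kb, 2.84-fold below MTF1 (1.67 to 5.23). MT1A, outside the 8 genes, stood higher than MT1E, at 1.81 CPM per kb. In DSS with polydatin SLC30A1 stood at 16.4, MTF1 at 3.32, MT1F at 2.41 and MT2A at 1.09 CPM per kb, so MT2A was the fourth in order and 2.20-fold below MT1F (1.14 to 4.42). In DSS the order was SLC30A1 at 15.0, MTF1 at 3.29, MT1F at 3.13 and MT2A at 2.20 CPM per kb, with the last 3 not apart between neighbours. Transcript choice matters for these levels, since coding transcripts of MT2A range between 581 and 786 bases and those of MT1F between 416 and 690, which puts MT2A at 3.92 to 5.31 and MT1F at 3.67 to 6.09 CPM per kb in control.

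Windows of 250 bases before the RefSeq start (GRCh38.p14) were found for 4 of the 8 genes, MT2A, MT1X, MTF1 and SLC30A1. The core of the metal response element was searched on both strands as TGCACNC or TGCGCNC. MT2A and SLC30A1 are printed on the gene's strand, as the pair of MTF1 targets whose counts ran in opposite order, with matches on either strand in capitals. The MT2A window is chr16:56608334-56608583 on the plus strand and that of SLC30A1 is chr1:211579162-211579411 on the minus strand.
MT2A: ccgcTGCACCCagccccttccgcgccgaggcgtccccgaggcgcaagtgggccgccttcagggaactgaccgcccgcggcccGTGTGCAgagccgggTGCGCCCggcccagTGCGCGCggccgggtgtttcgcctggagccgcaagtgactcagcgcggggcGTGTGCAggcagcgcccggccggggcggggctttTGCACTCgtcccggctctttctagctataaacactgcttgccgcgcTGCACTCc
SLC30A1: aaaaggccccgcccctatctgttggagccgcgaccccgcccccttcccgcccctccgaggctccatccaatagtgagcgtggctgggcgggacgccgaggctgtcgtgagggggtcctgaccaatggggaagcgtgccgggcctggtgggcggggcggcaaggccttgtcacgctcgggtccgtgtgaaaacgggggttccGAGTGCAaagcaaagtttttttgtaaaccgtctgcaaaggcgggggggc
MT2A had 7 matches, 5 on the gene's strand and 2 on the other, a number reached by 0.0313% of 35116 promoter windows of the same length. MT1X had 4, SLC30A1 had 1 and MTF1 had 0, and 24.8% of all windows had at least 1. The match nearest to the MT2A start began 8 bases before it, and that of SLC30A1 lay 49 to 43 bases before its start. Other letters searched were the antioxidant response element core TGACNNNGC, the GC box GGGCGG and the TATA box TATAAA. The antioxidant core had 1 match each in MT2A, MT1X and SLC30A1 and 0 in MTF1, beside 10.9% of all windows with a match. GC boxes numbered 2 in MT2A, 2 in MT1X, 1 in MTF1 and 6 in SLC30A1, beside 42.6% of all windows with at least 1, and in MT1X a GC box overlapped a metal response element core. A TATA box stood in MT2A and MT1X, beside 10.7% of all windows, and in neither MTF1 nor SLC30A1. A match is a string of letters, not a bound site. The RefSeq start lies 385 bases inside the GENCODE 29 gene for MT2A, 46 for MT1X and 28 for MTF1, but 419 bases upstream of the GENCODE gene for SLC30A1. For SLC30A1 the bases next to the GENCODE start were therefore not searched, and its count of matches holds for the printed window alone.

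Zinc exporters other than SLC30A1 had 7 of 10 listed genes measured. In DSS against control 2 were at least 1.5-fold higher and 0 lower (median log2 ratio 0.14, beside −0.01 over all measured genes). In DSS with polydatin against DSS 1 was higher and 0 lower (median 0.06, beside −0.01), and against control 3 were higher and 0 lower (median 0.29, beside −0.02). Of all measured genes, 9.45% were called higher and 5.81% lower in DSS against control, 5.39% and 2.60% with polydatin against DSS, and 16.0% and 12.4% with polydatin against control. SLC30A4, which loads zinc into intracellular vesicles, had 136 counts in DSS with polydatin, 90 in DSS and 53 in control. It was at 1.66 times control in DSS (1.17 to 2.38), at 1.61 times DSS with polydatin (1.22 to 2.12) and at 2.67 times control with polydatin (1.93 to 3.74). SLC30A2, a vesicular zinc transporter, had 61, 67 and 42 counts and was at 1.56 times control in DSS (1.05 to 2.36) and at 1.51 times with polydatin, where the lower bound of 1.00 is above 1 only before rounding (upper bound 2.30). With libraries thinned to the same total these ratios were 1.39 and 1.45, and neither met the rule, nor did the ratio of 1.48 with polydatin under DESeq2 size factors. TMEM163, a zinc efflux protein gene, had 57, 43 and 27 counts and was at 2.20 times control with polydatin (1.37 to 3.62).

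Zinc importers had 11 of 14 listed genes measured. In DSS against control 2 were higher and 0 lower (median 0.04), in DSS with polydatin against DSS 1 was higher and 1 lower (median 0.05), and against control 2 were higher and 1 lower (median 0.07). The share called higher over all measured genes was 9.45%, 5.39% and 16.0% and the share called lower 5.81%, 2.60% and 12.4%, with medians of −0.01, −0.01 and −0.02. SLC39A5, an importer of the basolateral membrane of enterocytes, had 759 counts in DSS with polydatin, 670 in DSS and 398 in control, at 1.65 times control in DSS (1.46 to 1.87) and 1.99 times with polydatin (1.76 to 2.25). SLC39A13, which moves zinc out of the secretory pathway, had 266, 177 and 108 counts, at 1.61 times control in DSS (1.26 to 2.06), 1.60 times DSS with polydatin (1.32 to 1.94) and 2.56 times control with polydatin (2.04 to 3.24). SLC39A10, a plasma membrane importer, ran the other way with 2369, 3844 and 4115 counts. It was at 0.655 times DSS with polydatin (0.622 to 0.689) and at 0.600 times control (0.570 to 0.631). With total-count scaling the ratio to DSS was 0.696, which no longer met the rule.

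**Figure D4:**
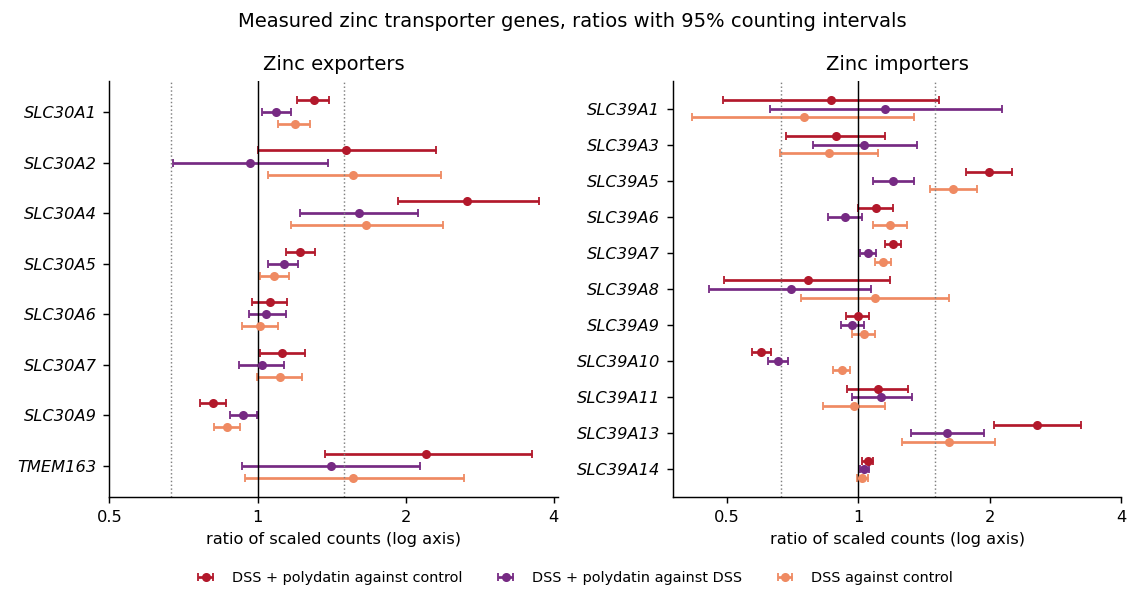
Ratios of scaled counts (horizontal log axis) with 95% counting intervals for the measured zinc exporter (left, SLC30A1 included) and importer genes (right), in 3 comparisons by colour; dotted lines mark 1.5-fold. SLC30A4, TMEM163, SLC39A5 and SLC39A13 lie highest against control with polydatin (2.67, 2.20, 1.99 and 2.56) and SLC39A10 lowest (0.600).

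Copper handling genes had 13 of 14 measured. In DSS against control 1 was higher and 0 lower (median log2 ratio 0.02), in DSS with polydatin against DSS 0 and 0 (median −0.10), and against control 2 and 0 (median −0.22). Over all measured genes 9.45%, 5.39% and 16.0% were called higher and 5.81%, 2.60% and 12.4% lower, with medians of −0.01, −0.01 and −0.02. The counts of 1, 0 and 2 higher among 13 genes lie near that background. Of the 13, 10 had a log2 ratio below 0 and 3 above in DSS with polydatin against DSS. Intervals of several of the 10 reached 1, as did those of the 3 above. The share of all measured genes below 0 was not counted. With polydatin against control 8 were below and 5 above, and 0 of the 13 were called lower in either comparison. SCO2, a copper chaperone of cytochrome oxidase, had 106 counts in DSS with polydatin, 113 in DSS and 71 in control and was at 1.56 times control in DSS (1.15 to 2.13) and 1.55 times with polydatin (1.14 to 2.13). SLC31A2, a vesicular copper transporter gene, was at 1.86 times control with polydatin (1.20 to 2.94).

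Heavy metal stress genes, which respond to cadmium and similar insults, had 12 of 13 measured. In DSS against control 3 were higher and 1 lower (median log2 ratio 0.51), in DSS with polydatin against DSS 4 and 0 (median 0.22), and against control 6 and 1 (median 0.96). Over all measured genes 9.45%, 5.39% and 16.0% were called higher and 5.81%, 2.60% and 12.4% lower. Several of them are also NRF2 or heat shock factor targets. HSPA1A and HSPA1B are near-identical heat shock genes whose split of reads is uncertain. In DSS the ratio to control was 1.93 for HSPA1A (1.77 to 2.10) and 1.99 for HSPA1B (1.76 to 2.25). GCLM, a subunit of the enzyme that starts glutathione synthesis, was at 2.32 times control with polydatin (2.12 to 2.53) and the thioredoxin reductase gene TXNRD1 at 2.31 times (2.24 to 2.39). ATF3 was at 4.41 times control with polydatin (3.85 to 5.07). Ratios of DSS with polydatin to DSS were 2.07 for ATF3 (1.87 to 2.30), 1.61 for TXNRD1 (1.57 to 1.66) and 1.59 for GCLM (1.47 to 1.72). In the same comparison HSPA1A was at 0.978 (0.912 to 1.05) and HSPA1B at 1.10 (0.996 to 1.21). SLC7A11, the cystine transporter gene, was at 0.368 times control in DSS (0.346 to 0.390) and at 1.74 times DSS with polydatin (1.63 to 1.85). With polydatin it stayed below control, at 0.639 times (0.608 to 0.672), a call that was lost with total-count scaling. HMOX1, the heme oxygenase gene that heavy metals induce, named after its value was seen, had 478, 446 and 506 counts and met the rule in none of the 3 comparisons.

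Glucocorticoids also induce metallothionein genes, so genes inducible by glucocorticoids were listed too, and 8 of 9 were measured. The list also holds the gene of the glucocorticoid receptor itself. In DSS against control 3 were higher and 1 lower (median log2 ratio 0.38), in DSS with polydatin against DSS 2 and 0 (median 0.29), and against control 4 and 1 (median 0.46). Over all measured genes 9.45%, 5.39% and 16.0% were called higher and 5.81%, 2.60% and 12.4% lower. TSC22D3 (GILZ) had 171 counts in DSS with polydatin, 112 in DSS and 40 in control, at 2.74 times control in DSS (1.90 to 4.04) and 4.45 times with polydatin (3.14 to 6.45). DUSP1, a phosphatase that shuts off MAP kinases, was at 2.69 times control in DSS (2.34 to 3.10) and 5.09 times with polydatin (4.47 to 5.81), and the clock gene PER1 at 1.75 times (1.34 to 2.30) and 1.94 times (1.49 to 2.54). FKBP5, a chaperone of the receptor, was lower, at 0.585 times control in DSS (0.537 to 0.637) and 0.514 times with polydatin (0.469 to 0.563).

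Base composition moved with part of these ratios. The 500 measured genes nearest to MT2A in transcript GC content (63.0%) had a median log2 ratio of 0.26 in DSS against control, 0.17 in DSS with polydatin against DSS and 0.42 against control. MT2A, at −0.84, −1.01 and −1.84, thus had the opposite sign, and with that trend subtracted its log2 ratios were −1.10, −1.18 and −2.27. The 500 nearest to SLC30A1 (GC 38.0%) had medians of −0.12, −0.05 and −0.19, and SLC30A1 then stood at 0.37, 0.18 and 0.56 in place of 0.25, 0.13 and 0.37. Genes of like transcript length to MT2A had medians of −0.01, −0.01 and −0.03.

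Among the genes whose pattern lay nearest to that of the summed metallothioneins were BUB1, LMNB1, MCM6 and HMGB1. Likeness was the distance between the log2 ratios to control of DSS and of DSS with polydatin, over 3 libraries and 10026 genes with at least 10 CPM in a library. BUB1, a mitotic checkpoint kinase gene, was nearest at a distance of 0.0219, with 85.4 CPM in DSS with polydatin, 126 in DSS and 197 in control. The replication helicase gene MCM6 had 178, 275 and 419 CPM, and the nuclear lamin gene LMNB1 149, 219 and 344 CPM. Within a distance of 0.2 lay 81 genes. The ratios of the summed metallothioneins to control had intervals of 0.479 to 0.859 in DSS and 0.301 to 0.598 with polydatin. Beside such distances these intervals are wide, so the order of the nearest genes is not settled. With 3 libraries such likeness is a description only.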

How the data were processed

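In Caco-2 cells 1 library per group was sequenced, from Trizol-extracted total RNA and a VAHTS Universal V6 kit per the labels' protocols. HISAT2 and GRCh38 are named in the submitters' processing notes. No aligner version, counting program, annotation or strand setting is given in the sources used here. Values are whole-number counts per Ensembl gene as deposited, which the authors did not normalize. Symbols matched for 60463 of 60664 identifiers (99.7%), and coordinates came from GENCODE 29 on GRCh38.

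Counts were scaled with TMM factors (1.05 for DSS with polydatin, 0.984 for DSS, 0.971 for control; edgeR 4.0.16, R 4.3.3). Ratios have exact 95% Clopper-Pearson intervals (Python 3.11.15, scipy 1.17.1). A gene was called at 1.5-fold with an interval excluding 1. The floor was 3 counts per library. PCR copies cannot be recognised here, since the labels name no molecular identifiers, and both the intervals and the floor describe counting error alone. The ratios were tested on simulated data. The simulated counts were Poisson draws, the error that the intervals assume, so variation between replicates or from PCR was not covered. Known changes were placed only in genes with a mean of at least 1 CPM, so scarcer genes were not covered either.

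The members, gene lists, the call rule and the alternatives were chosen with earlier results of these data known. Besides the 8 genes and the counted family members, the genes named are, per list and comparison, up to 4 past the rule with the largest ratios, and the 5 genes of nearest pattern, of which 1 is not reported here. The chromosome 16 neighbours and the GC and length trends were added after the data were examined. Alternatives were DESeq2 1.42.0 size factors, total-count scaling, thinning, other filters, a 2-fold rule and 2 added counts. RefSeq protein sequences were not used here. Figures were drawn with matplotlib 3.10.9.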

Additional observations from a re-analysis of the deposited data

How the results depend on the processing

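No paired analysis was possible because each group holds 1 library, and no library could be left out. The summed metallothionein log2 ratios kept their sign under every alternative tried, at −0.49 to −0.96 for DSS against control (−0.64 as reported), −0.37 to −0.84 for DSS with polydatin against DSS (−0.59) and −0.86 to −1.80 against control (−1.23). The value of −1.80 came without MT1F, the most abundant of the 6 over all libraries, and −0.86 without MT2A, an alternative added after the data were examined. The count of members called lower (1 in each comparison) was 0 in each with a CPM of at least 10, by construction of the filter, since no metallothionein reaches it. It was 0 with a 2-fold rule in DSS against control, and 0 with total-count scaling and with thinning in DSS with polydatin against DSS. Without the filter it was 2 in both polydatin comparisons, with MT1E added, and the count called higher was 1 in DSS with polydatin against DSS, which is MT1X with 6 counts against 0. For single members 100 alternative values stayed within their counting interval and 2 did not, the SLC30A1 values with the GC trend removed. For the other lists, where the reported count of called genes was above 0, 27 of 120 counts under alternatives moved by over 1.5 times, 16 of them with the 2-fold rule and 8 with a CPM of at least 10. Total-count scaling moved the median log2 ratio of all genes to 0.08 and 0.09 in the comparisons with polydatin, short of 0.1. Depth limits the metallothioneins, with 14 to 56 counts in control for the 3 leading genes.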
